A study of Canis lupus familiaris with 33 samples.

Results

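The 31 genes described here are single-exon genes on dog chromosome 35 whose lengths equal the coding sequences, stop codon included, of the 4 core histones. They were taken from the 30951 genes of the count table by position and length alone. All lie in 1 interval of chromosome 35 with 79 annotated genes, in which the first of the 31 starts at 23977201 and the last ends at 25061935 (CanFam3.1), and each has 1 annotated exon. The length of an H4 coding sequence (103 residues and a stop codon) was held by 8 genes, and that of H2B (126 residues) by 8. The length of H2A (130 residues) was held by 7 genes, and that of H3 (136 residues) by 8. These families are called H4-length, H2B-length, H2A-length and H3-length below. The interval itself was picked because its genes stood higher in tumours in earlier results of these data, so all tumour-against-control values below are descriptions and none is a test.

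Core histones are the proteins around which DNA is wound. H3 and H4 form the centre of the nucleosome and H2A with H2B flank it, so a dividing cell needs all 4 at once. Most of them are encoded by clustered genes without introns, transcribed mainly while DNA is copied, and their mRNAs end in a stem-loop in place of a poly(A) tail. The kit used here makes libraries from total RNA, so such mRNAs can enter them. In human and mouse, H2A and H2B genes often stand head to head with a short shared region between their start sites.

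The study sequenced RNA of 33 brain samples from 25 dogs, either oligodendroglioma, a glial tumour, or healthy brain as control, collected at necropsy between 1 and 18 h after death. The 11 formalin-fixed, paraffin-embedded (FFPE) tumours (9 of grade III, 2 of grade II) came from 4 Boxers, 6 French Bulldogs and 1 Pomerian, aged 4.7 to 12 years where stated. The 10 FFPE controls came from 4 Boxers, 5 French Bulldogs and 1 Bolonka Swetna, aged 2 to 8 years where stated, and the 6 fresh-frozen tumours (5 of grade III, 1 of grade II) from 1 Boxer, 3 French Bulldogs, 1 Pomerian and 1 Border Terrier, aged 4.7 to 10 years where stated. The 6 fresh-frozen controls came from 2 French Bulldogs, 1 Bolonka Swetna, 1 Hovawart, 1 Mongrel and 1 Berner sennenhund, aged 2.8 to 10.2 years where stated. A library of each preservation exists for 8 dogs (5 with tumour, 3 controls). No treatment and no engineered allele is labelled, and the labels do not say which brain region was taken.

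Total counts ran from 1.75 to 12.5 M (mega-counts) in FFPE tumours, from 0.406 to 32.6 M in FFPE controls, from 9.77 to 25.2 M in fresh-frozen tumours and from 15.3 to 26.7 M in fresh-frozen controls. The fresh-frozen libraries of dogs 60126, 60127, 60461 and 60462, 2 tumours and 2 controls, stood apart from the other 8 on the second principal component of all genes (23.3% of the variance). What sets them apart is not labelled, and results are given with and without them. The table pairs no identifier with a gene name, so markers of neurons, glia or dividing cells could not be read, and the genes are called here by length and start position. In bulk tissue, more cells that make these mRNAs and more mRNA per cell cannot be told apart.

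The length rule found genes in 3 stretches of the interval. The first, from 23977201 to 24194648, holds 17 of the 31 genes, the second, from 24544083 to 24558164, holds 3, and the third, from 24999692 to 25061935, holds 11. Both strands carry members of every family, 4 and 4 of the H4, H2B and H3 lengths, and 5 on the plus strand against 2 on the minus strand of the H2A length. RefSeq, on another dog assembly, places 35 of its 42 genes with core histone symbols on chromosome 35 and 7 on chromosome 17, and its symbols could be paired with 0 of the identifiers. On chromosome 35 those symbols are 7 of H4, 12 of H2B, 12 of H2A and 4 of H3, so the length families match the H4 number most closely and hold more H3-length genes than RefSeq has H3 symbols there. No single gene is therefore given a histone name.

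Copies within a family can be nearly identical in sequence, and fragments that match several places were not counted. Such fragments are missing from the value of a single gene and from the sum of its family alike. How many were lost is not known here, so families with more similar copies may be counted less completely. Another gene is annotated on the opposite strand over 7 of the 31 (2 of H4 length, 1 of H2B length, 2 of H2A length and 2 of H3 length), and none on the same strand. The counting used strand.

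Summed over all 31 genes, including those too low to be tested singly, tumours stood above controls in both preservations. The sum was 336.6, 499.1 and 1148 CPM (counts scaled to a library total of 1000000) in the lowest, median and highest fresh-frozen tumour, against 80.8, 141.6 and 231.0 CPM in fresh-frozen controls. All 6 fresh-frozen tumours lay above all 6 controls, and the mean difference was 2.00 on a log2(CPM + 1) scale (pooled SD 0.62). In FFPE tissue the lowest, median and highest sums were 32.96, 93.97 and 585.9 CPM in tumours and 14.98, 31.9 and 78.2 CPM in controls, a mean log2 difference of 1.57 (pooled SD 0.94). There the groups overlapped, and 8 of 11 tumours lay above every control. That number was 4 of 11 with TMM-scaled library sizes and 10 of 11 with totals that leave out mitochondrial genes. Counting error alone was small in fresh-frozen libraries, with at least 1932 member counts each, and large in the shallowest FFPE control (dog 50315), where 13 counts gave 31.99 CPM with an exact 95% interval of 17.03 to 54.7 CPM.

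Within the 4 fresh-frozen libraries that stood apart, the 2 tumours had 361.3 and 595.1 CPM and the 2 controls 80.8 and 124.6 CPM, a log2 difference of 2.20. Among the other 8, the 4 tumours ran from 336.6 to 1148 CPM and the 4 controls from 109.4 to 231.0 CPM, a difference of 1.90. The tumour sums were thus above the control sums in each set of dogs.

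**Figure D1:**
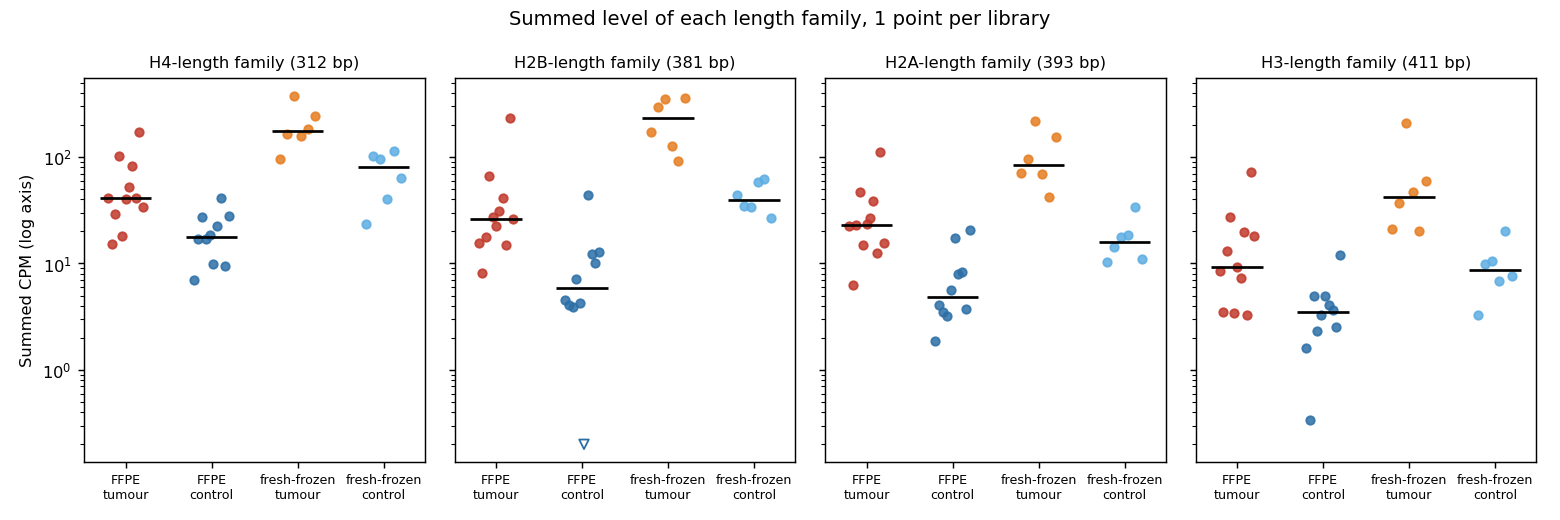
Summed CPM (log axis) of each length family in every library, with 1 point per library and a bar at the group median. The open triangle marks the 1 library at 0. In fresh-frozen tissue every tumour lies above every control for the H2B-length and H2A-length families, and in FFPE tissue tumours and controls overlap in all 4.

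The 4 families did not differ between tumour and control by the same amount. The H4-length family had the smallest fresh-frozen difference: its sum was 95.7, 174.2 and 375.7 CPM in the lowest, median and highest tumour, against 23.4, 80.1 and 113.9 CPM in controls. The log2 difference was 1.53, and 5 of 6 tumours lay above every control. For the H2B-length family sums were 92.0, 234.4 and 362.2 CPM in tumours and 26.8, 39.5 and 62.8 CPM in controls, a log2 difference of 2.28, with no overlap.

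The H2A-length family had sums of 42.4, 83.8 and 218.0 CPM in fresh-frozen tumours and 10.3, 15.9 and 34.1 CPM in controls, a log2 difference of 2.47, again with no overlap. For the H3-length family tumours had 20.1, 41.8 and 206.9 CPM and controls 3.26, 8.74 and 20.2 CPM. The log2 difference was 2.29, and 5 of 6 tumours lay above every control. The lowest tumour of this family, dog 60679, was level with the highest control, dog 60516.

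In FFPE tissue the median sum of the H4-length family was 41.6 CPM in tumours and 17.7 CPM in controls (log2 difference 1.32), and that of the H2B-length family was 25.9 CPM in tumours and 5.85 CPM in controls (2.00). The H2A-length family had medians of 23.1 CPM in tumours and 4.85 CPM in controls (1.82), and the H3-length family 9.36 CPM in tumours and 3.46 CPM in controls (1.52). No family separated the FFPE groups. In the shallowest control the H2B-length family had 0 of 406406 counts, which allows up to 7.38 CPM by the limit of 3 counts and 9.08 CPM by the exact 95% interval, both above the median of the FFPE controls.

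Among the 4 families the H4-length difference was thus smaller than the other 3 in both preservations. Within the set of 8 fresh-frozen libraries the log2 differences were 1.29 for H4 length, 2.35 for H2B length, 2.45 for H2A length and 2.27 for H3 length. Within the 4 libraries that stood apart they were 2.00 for H4 length, 2.13 for H2B length, 2.50 for H2A length and 2.32 for H3 length, so the H4-length family was nearer to the others there. These differences between families were not tested, since the genes were chosen from the same contrast.

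Compared per length, as summed CPM per kilobase, the H4-length and H2B-length families were the most abundant and the H3-length family the least. Median values in fresh-frozen tumours were 558.5 for H4 length, 615.4 for H2B length, 213.1 for H2A length and 101.8 for H3 length, and in fresh-frozen controls 256.7, 103.5, 40.4 and 21.3 in the same order of families. The H4-length family ranked first in 3 of 6 tumours and in 4 of 6 controls, and the H2B-length family in the rest, so the order of these neighbours was not fixed. The H2A-length family came next and the H3-length family last in all 12 fresh-frozen libraries.

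The median shares of member counts held by the H4-length and H2B-length families differed between the fresh-frozen groups. The H4-length family made up a median of 31.3% of the member counts in fresh-frozen tumours (26.5% to 54.1%) and 53.9% in fresh-frozen controls (28.9% to 63.5%). The H2B-length family made up 37.8% in tumours (27.3% to 49.7%) and 25.9% in controls (21.6% to 54.3%). The ranges overlapped widely, and part of the spread followed the set of dogs that stood apart. The ratio of the H4-length sum to the H2B-length sum was 0.552 and 0.563 in the 2 tumours of that set and 0.677 to 1.98 in the other 4 tumours. In controls it was 0.532 and 0.687 in the 2 of that set and 1.81 to 2.94 in the other 4. Within that set the controls thus lay on both sides of the tumours. The part of the unlabelled set in the family shares was not tested.

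**Figure D2:**
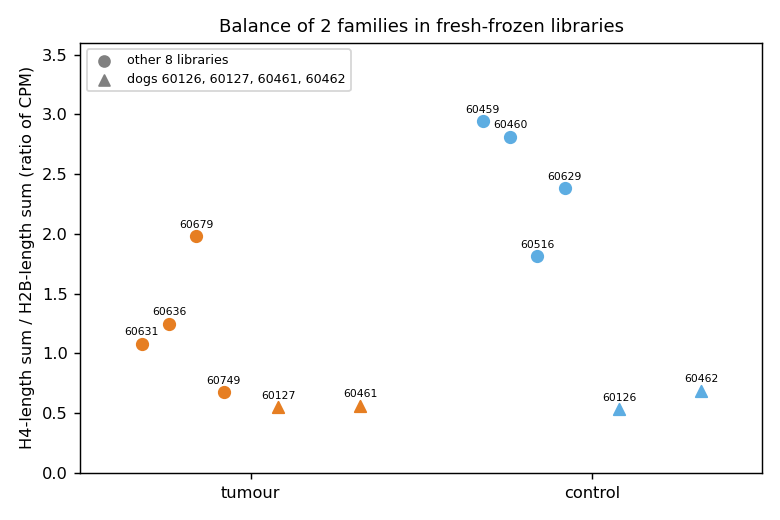
Ratio of the summed CPM of the H4-length family to that of the H2B-length family in each fresh-frozen library (linear axis, dog numbers beside the points). Triangles are the 4 dogs that stood apart over all genes, which lie between 0.532 and 0.687, and circles the other 8, which lie between 0.677 and 2.94.

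Gene by gene, 23 of the 31 passed the filter on low counts in fresh-frozen tissue, 8 did not, and 20 of the 23 were higher in tumours and 0 lower by edgeR's quasi-likelihood test (adjusted p under 0.05). Over all 15057 genes tested 18.3% were higher and 12.2% lower. The log2 fold changes of the 23 ran from 0.83 to 5.06 with a median of 2.31, and the median of all genes was 0.10. The 8 genes left out were low in controls and also in some tumours. Low control counts alone did not decide this: the tested gene at 25002450 had 13 counts over the fresh-frozen controls, and the gene left out at 24155234 had 30. Tested genes that low in controls passed mainly through their tumour libraries, so the count of 23 is not a count of all members. With every gene kept, 27 of 31 were higher, beside 8.44% of all genes in that fit. Without the 4 libraries that stood apart, 14 of 25 tested genes were higher, beside 8.74% of all genes, and the leading genes at 24194337, 23977201, 24187178 and 24121361, described below, were not among them (log2 fold changes 0.954, 1.74, 4.91 and 1.13).

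By family, 4 of 6 tested H4-length genes were higher (median log2 fold change 1.44, range 0.83 to 3.44), and 6 of 6 of H2B length, with a median of 2.55 (2.08 to 4.40). Of the H2A-length genes 4 of 5 were higher, median 2.34 (1.63 to 5.06), and of the H3-length genes 6 of 6, median 3.81 (1.83 to 4.94). The filter shapes these medians: the tested H3-length genes at 24177521, 24187178 and 25002450 had only 26, 38 and 13 counts over the fresh-frozen controls. Summed over all 8 H3-length genes the log2 difference was 2.29, below the 2.47 of the H2A-length sum. Every tumour lay above every control for 7 of the 31, namely 0 of H4 length, 1 of H2B length, 3 of H2A length and 3 of H3 length. Over all genes tested this held for 7.40%. These shares have unlike bases, since the 7 include the genes at 24155234 and 25059288, which did not pass the filter.

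Position went with the size of the difference. Tested genes of the first stretch had a median log2 fold change of 2.18 (16 genes, 15 higher), and those of the third a median of 4.30 (6 genes, 5 higher). Only 6 of the 11 genes of the third stretch were tested, and those low in controls passed the filter mainly through their tumour libraries. That median therefore does not stand for all 11. In the second stretch 1 gene was tested, with 1.63 ± 0.60 (SE), and it was not called. Summed over all 11 genes, the third stretch had 19.4, 43.1 and 197.5 CPM in the lowest, median and highest fresh-frozen tumour and 2.17, 4.36 and 13.2 CPM in controls, a log2 difference of 3.12. The first stretch, summed over 17 genes, had 310.6, 445.9 and 896.6 CPM in tumours and 76.5, 133.8 and 209.6 CPM in controls, a difference of 1.89. The third stretch thus rested on few counts: it held 10.7% of the member counts of fresh-frozen tumours and 3.68% of those of controls. In FFPE tissue the log2 differences of these sums were 2.08 for the third stretch and 1.44 for the first.

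The level of a tested gene moved with its fold change as well, but the filter builds in part of this. The mean level includes the tumours, and genes low in controls passed the filter mainly through their tumour libraries. Genes low in both groups are therefore missing. The 12 tested genes with the higher mean level over the 12 fresh-frozen libraries (24.6 to 175.8 CPM per kilobase) had a median log2 fold change of 2.01, and the 11 with the lower level (4.77 to 18.4 CPM per kilobase) had 3.44. Level, stretch and family are not independent in 23 genes, and their separate parts were not tested.

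**Figure D3:**
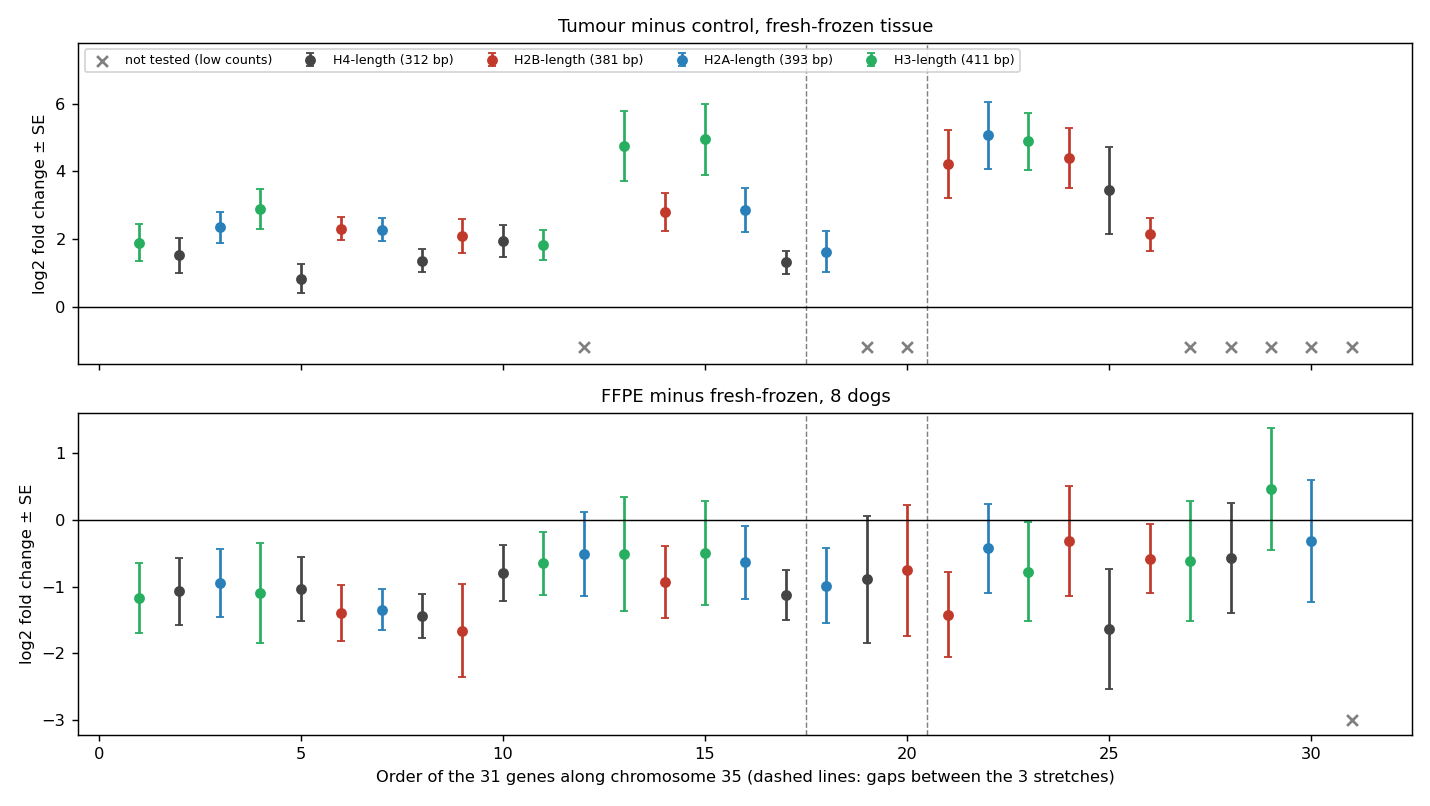
log2 fold change with its SE (edgeR) of each of the 31 genes in their order along chromosome 35, for fresh-frozen tumour minus control (upper panel) and for FFPE minus fresh-frozen tissue of 8 dogs (lower panel). Crosses mark genes left out by the filter on low counts. All 23 values in the upper panel are above 0, and 29 of 30 in the lower panel are below 0.

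The H4-length gene with the most counts, at 24194337 to 24194648, had 42.1, 80.9 and 126.5 CPM in the lowest, median and highest fresh-frozen tumour and 9.35, 30.7 and 45.9 CPM in controls. Its log2 fold change was 1.31 ± 0.34 (SE), and only the lowest tumour fell inside the range of controls. In FFPE tissue it had 1.93, 18.3 and 80.9 CPM in tumours and 1.61, 6.43 and 15.9 CPM in controls (log2 fold change 1.52 ± 0.44), and 7 of 11 tumours lay above every control. The H2B-length gene with the most counts, at 24131296 to 24131676, had 35.4, 119.5 and 180.2 CPM in fresh-frozen tumours and 10.2, 22.8 and 41.0 CPM in controls (2.08 ± 0.50). In FFPE controls it ran from 0 through a median of 1.51 to 35.1 CPM, and in FFPE tumours from 1.71 through 5.60 to 88.0 CPM, with a log2 fold change of 1.13 ± 0.74 that was not called. The highest of those controls was dog 60126. Without it the value was 2.81, and the gene was called higher.

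The H2A-length gene with the most counts (ENSCAFG00000031860), at 24067113 to 24067505, had 30.6, 53.9 and 78.4 CPM in fresh-frozen tumours and 5.21, 9.45 and 21.1 CPM in controls, with no overlap (log2 fold change 2.28 ± 0.34). In FFPE tissue it had 4.21, 9.89 and 45.0 CPM in tumours and 1.39, 3.12 and 9.52 CPM in controls (1.63 ± 0.37), with 8 of 11 tumours above every control. The leading H3-length gene, at 23977201 to 23977611, had 5.02, 15.96 and 62.9 CPM in fresh-frozen tumours and 1.95, 4.93 and 11.1 CPM in controls (1.89 ± 0.55). Its highest tumour was dog 60631, and without that dog its value was 1.16 and the call was lost. In FFPE tissue this gene was below the filter, with medians of 1.92 CPM in tumours and 0.134 CPM in controls, 5 of which had no count.

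The highest fold changes belonged to genes that were nearly silent in control brain. The H2A-length gene at 25000401 to 25000793 (ENSCAFG00000029759) had 1.55, 11.3 and 54.0 CPM in fresh-frozen tumours and 0.0784, 0.197 and 2.56 CPM in controls (log2 fold change 5.06 ± 0.98). Only dog 60516 among the controls was above 0.271 CPM. The same gene was the highest in FFPE tissue too, with 0.526, 5.27 and 23.98 CPM in tumours and 0, 0.0460 and 3.66 CPM in controls (3.01 ± 0.81). The H3-length gene at 24187178 to 24187588 (ENSCAFG00000045750) had 0.414, 5.49 and 39.7 CPM in fresh-frozen tumours and 0, 0.214 and 1.25 CPM in controls (4.94, SE 1.046). Tumours and controls overlapped for both genes in fresh-frozen tissue, since the lowest tumour was below the highest control.

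At the other end stood the H4-length gene at 24045023 to 24045334, with 15.4, 43.9 and 62.7 CPM in fresh-frozen tumours and 5.09, 22.1 and 35.2 CPM in controls (log2 fold change 0.83 ± 0.42, not called). Its FFPE value was 0.73 ± 0.44, also not called, and a gene lies on the opposite strand over it. The H4-length gene at 24121361 to 24121672 (ENSCAFG00000030825) had 17.6, 27.8 and 63.4 CPM in fresh-frozen tumours and 5.05, 10.9 and 21.6 CPM in controls (1.36 ± 0.35).

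Some genes gave too few control counts for a fold change. At 25059288 an H3-length gene had 221 counts over the 6 fresh-frozen tumours and 3 over the 6 controls, and at 25061555 an H2B-length gene had 25 counts in tumours and 6 in controls. Few genes made up most of the signal: over all 33 libraries 4 of them (of H2B length at 24131296, H4 length at 24194337, H2B length at 24066399 and H2A length at 24067113) held 53.4% of 94021 member counts, and 8 held 75.1%.

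Some genes stood head to head with a neighbour of histone-like length. Taking gaps of under 1000 bp between annotated genes that start away from each other, there were 7 such pairs with gaps of 297 to 402 bp. In 3 pairs both partners were members, each an H2B-length and an H2A-length gene. The annotated genes hold the coding length only, so the gap is not the distance between start sites of transcription. The pair at 24066399 and 24067113 was matched in level: the H2B-length gene had 33.2, 65.7 and 117.2 CPM in fresh-frozen tumours and 7.52, 11.8 and 23.7 CPM in controls, beside the values of its partner given above. The log2 fold changes of the pair were 2.31 ± 0.34 for H2B length and 2.28 ± 0.34 for H2A length. The pair at 24999692 and 25000401 had the high log2 fold changes of 4.21 ± 1.01 for H2B length and 5.06 ± 0.98 for H2A length. The third pair was unequal, with 693 counts in all libraries for the H2A-length gene at 25060862 and 37 for the H2B-length gene at 25061555.

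The other 4 pairs joined a member to a gene of 378, 387, 387 or 390 bp just outside the length rule. The 387 bp gene at 25005826 had a fresh-frozen log2 fold change of 3.40 ± 0.56, and its H2B-length partner at 25006510 had 4.40 ± 0.88. The 390 bp gene at 25030551 had 2.14 ± 0.45 and its H2B-length partner at 25031264 had 2.14 ± 0.49. The other two outside genes, of 378 bp at 24189353 and 387 bp at 24558493, were below the filter. All 4 tested single-exon genes between 300 and 900 bp in the interval that the length rule leaves out were higher in fresh-frozen tumours (median log2 fold change 2.91), so the edge of the rule does not mark an edge in the values.

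Elsewhere in the genome 36 single-exon genes have 1 of the 4 lengths, 7 of them on chromosome 17. Of those, 12 were tested in fresh-frozen tissue, 2 were called higher and 0 lower, and their median log2 fold change was 0.90. On chromosome 17 the H3-length gene at 59121976 had 2.50 ± 0.61 and the H2B-length gene at 59174999 had 1.10 ± 0.30, and both were called. The H4-length gene at 59129682 had 0.99 ± 0.51 and the H2A-length gene at 59176251 had 0.09 ± 0.39, and neither was called. Among the 33 genes of more than 1 exon in the chromosome 35 interval 15 were tested and 9 called higher (median 1.29). On the rest of chromosome 35, 33 of 125 tested genes were called higher and 10 lower (median 0.36). Single-exon genes between 300 and 900 bp anywhere, a class chosen after the data were seen and that holds the members too, had a median of 0.52 over 277 tested genes. The other 2 tested single-exon genes of the interval, at 24377632 and 24271144, had 1.26 and -0.34. Most tested neighbours of the histone-length genes thus also stood higher, and the short single-exon ones, with the median of 2.91 given above over 4 genes, were not below the members' median of 2.31. Whether the members' difference exceeds that of the region was not tested.

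The fresh-frozen tumours differed among themselves over more than a 3-fold range. Dog 60631 had the largest sum, 1148 CPM, and was the highest tumour for 22 of 31 genes. Dog 60749 followed with 821.9 CPM, then 60461 with 595.1, 60636 with 403.0, 60127 with 361.3 and 60679 with 336.6 CPM. The last, the only fresh-frozen tumour of grade II, was the lowest for 16 genes, which says nothing of grade with 1 dog. Leaving out dog 60679 put 26 of 28 tested genes higher, with a median of 2.90, beside 16.5% of all genes. More genes passed the filter in that fit than in the main one, where 23 did, and 20 were called in both. Among controls dog 60516 had the largest sum, 231.0 CPM, and was highest for 24 genes, and dog 60126 had the smallest, 80.8 CPM. In FFPE tumours the 2 of grade II had 72.3 and 240.6 CPM, and the 9 of grade III ran from 32.96 to 585.9 CPM.

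In FFPE tissue 8 of the 31 genes passed the filter, and 6 of them were higher and 0 lower in tumours by edgeR's test, with 10.1% of 13338 genes higher and 11.1% lower. Their median log2 fold change was 1.42 (0.73 to 3.01), with 0.02 for all genes. The tested genes were 4 of H4 length (3 higher, median 1.28), 2 of H2B length (1 higher, 1.53), 2 of H2A length (both higher, 2.32) and 0 of H3 length. For no gene did every FFPE tumour lie above every control, against 0.105% of all genes tested, and per gene a median of 5 of the 11 tumours lay above every control. The number of members with any count was 20 to 31 (median 27) in FFPE tumours and 7 to 31 (median 13.5) in FFPE controls, against 29 to 31 in fresh-frozen tumours and 26 to 30 in fresh-frozen controls. Depth differs between these groups, and its part in this count was not tested. Within the FFPE controls, the deepest library (dog 60126, 32.6 M counts) had 24 members with a count and that of dog 61478 had 31.

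The FFPE calls did not hold in smaller groups: 0 genes were called with the 8 dogs that have both libraries left out, 0 with those dogs alone, and 0 with age as a covariate, where 5, 6 and 4 genes had an unadjusted edgeR p under 0.05. In the same order of fits 4.01%, 0.00665% and 0.379% of all genes tested were higher, so calls were rare over the whole table in the last 2 of them. The medians of the log2 fold changes stayed between 0.997 and 1.68 in these fits. Age as a covariate also left 4 of 23 genes called in fresh-frozen tissue, with a median of 2.06, where 2.63% of all genes were higher. Libraries whose own label states no age drop out of these fits, which kept 9 tumours and 5 controls in FFPE tissue and 5 of each in fresh-frozen tissue. The FFPE library of tumour dog 60461 was among those left out, although the label of its fresh-frozen library gives 8.8 years.

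The genes were chosen by the difference between tumour and control and not by that between preservations, so the comparison of preservations was tested. The same libraries entered both, and high values in the fresh-frozen tumours of 5 of its 8 dogs were part of the choice, so the test is not fully independent of it. In the 8 dogs with both libraries the histone-length genes were mostly lower in FFPE tissue, and 2 of 30 tested passed the threshold (edgeR with tissue as a covariate), where 0.135% of 17097 genes were lower and 2.81% higher. No member was higher. This fit did not pair the libraries by dog. The H4-length gene at 24121361 fell by 1.44 ± 0.33 on the log2 scale (edgeR adjusted p = 0.0222), and the H2A-length gene at 24067113 fell by 1.35 ± 0.31 (edgeR adjusted p = 0.0223). An unadjusted edgeR p under 0.05 was found for 9 genes. With the dog as a replicate block, 6 genes were lower (0.491% of all genes), including both of these and the H4-length genes at 24194337 and 24045023 and the H3-length gene at 23977201.

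The H4-length gene at 24121361 had, in the 5 dogs with tumour, 3.52, 4.02, 12.15, 3.295 and 15.1 CPM in FFPE tissue of dogs 60127, 60461, 60636, 60679 and 60749, and 17.56, 25.7, 36.01, 17.55 and 30 CPM in their fresh-frozen tissue. In control dogs 60126, 60460 and 60462 it had 4.79, 3.62 and 3.13 CPM in FFPE tissue and 5.05, 12.1 and 7.84 CPM in fresh-frozen tissue. In CPM by total counts it was lower in FFPE tissue in 8 of 8 dogs, and least so in dog 60126.

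The H2A-length gene at 24067113 had, in tumour dogs in the same order, 10.0, 13.6, 15.7, 8.24 and 45.0 CPM in FFPE tissue and 45.8, 62.1, 39.7, 30.6 and 71.3 CPM in fresh-frozen tissue. Control dogs 60126, 60460 and 60462 had 4.57, 4.83 and 2.51 CPM in FFPE tissue and 5.84, 11.2 and 13.3 CPM in fresh-frozen tissue. This gene, too, was lower in FFPE tissue in 8 of 8 dogs.

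In fits that, like the main one, did not pair the libraries by dog, both calls depended on most dogs being present. Without the set of 4 dogs that stood apart, 0 members were called by edgeR (2 had an unadjusted p under 0.05) and 0% of all genes, with values of -1.37 for the gene at 24121361 and -0.94 for the one at 24067113. Leaving out any 1 of dogs 60127, 60460, 60461, 60462, 60636 or 60679 also gave 0 members called, and 0 to 5 genes were lower over the whole table in those fits.

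The log2 fold change was below 0 for 29 of the 30 genes, with a median of -0.84 (-1.66 to 0.46) beside -0.05 for all genes tested. Single-exon genes between 300 and 900 bp anywhere, members included, had a median of -0.35 over 326 tested, and their 2 calls of lower were the 2 members. Genes of the 4 lengths outside the interval had a median of -0.52 over 15 tested, of which 5 were above 0 and 0 were called in either direction, with 6 at an unadjusted edgeR p under 0.05. By family the medians were -1.05 for H4 length, -0.93 for H2B length, -0.64 for H2A length and -0.64 for H3 length. Whether the families differ in this was not tested.

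In summed CPM by total counts every dog was lower in FFPE than in fresh-frozen tissue, by very different amounts. Dog 60126 had 78.2 CPM in FFPE and 80.8 CPM in fresh-frozen tissue, a ratio of 0.968, and dog 60749 had 585.9 and 821.9 CPM, a ratio of 0.713. Dogs 60636 and 60460 had FFPE to fresh-frozen ratios of 0.453 and 0.412. Dogs 60679, 60462, 60461 and 60127 had ratios of 0.215, 0.206, 0.198 and 0.177, the last from 63.9 CPM in FFPE and 361.3 CPM in fresh-frozen tissue. The median ratio was 0.313. By total counts the H4-length, H2B-length and H2A-length sums were lower in FFPE tissue in 8 of 8 dogs, and the H3-length sum in 6 of 8. With TMM-scaled library sizes dog 60126 was higher in FFPE tissue for H4 length (29.06 against 28.7 CPM) and H2B length (57.07 against 53.95 CPM). Dog 60126 also had the deepest FFPE library of all.

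**Figure D4:**
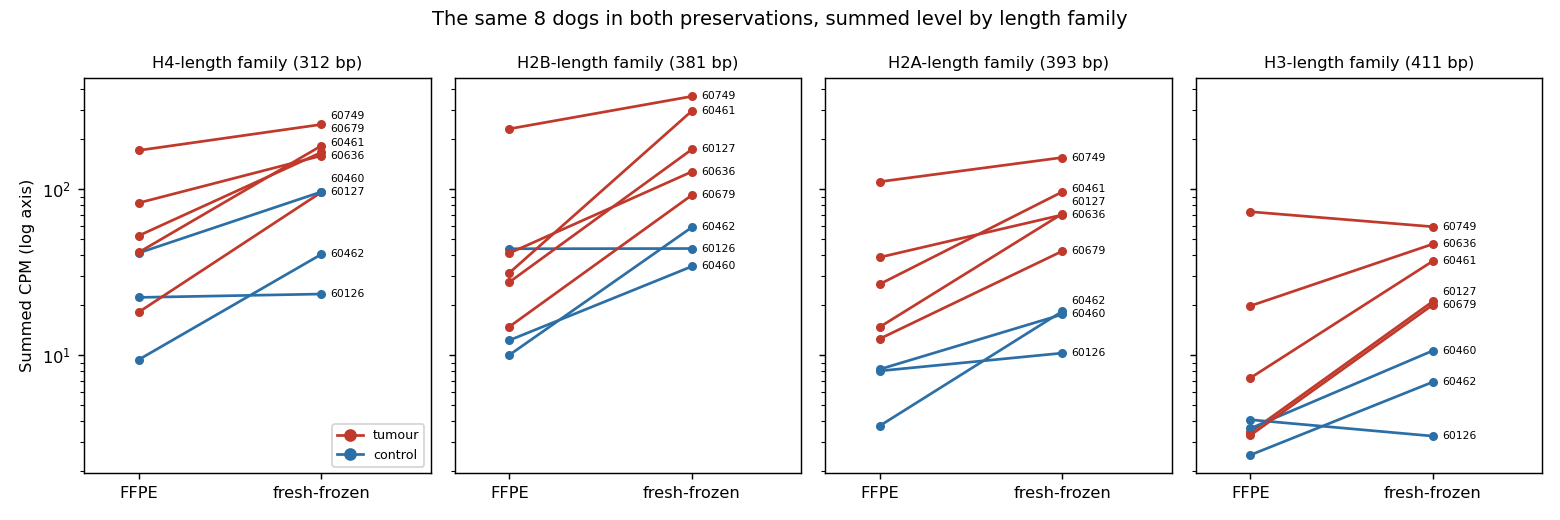
Summed CPM (log axis) of each length family in FFPE and fresh-frozen tissue of 8 dogs, with 1 line per dog. Most lines run lower on the FFPE side, and control dog 60126 is nearly level, with a ratio of 0.968 over all families.

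The interaction fit compares the tumour difference in FFPE tissue with that in fresh-frozen tissue. Both are contrasts that the choice of genes used, and the 8 shared dogs enter both. Of 22 genes tested 0 were called in either direction by edgeR, with 0 of 22 at an unadjusted p under 0.05 and 0 by DESeq2. Of 15714 genes tested, 0% were called, and 575 had an unadjusted p under 0.05. The values had a median of -0.40 (-1.90 to 0.70), and their SEs, for example 1.23 for the H2A-length gene at 25000401, leave room for large differences either way. The fit thus did not show a smaller difference in FFPE tissue, and it did not show that the differences are equal.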

How the data were processed

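The authors deposited raw counts of fragments per gene, made with featureCounts 1.6.0 (forward strand option 1, mapping quality of at least 10, chimeric fragments left out, Ensembl release 100 models of CanFam3.1), per the file headers. The submitters' processing notes also name fastp and STAR, with versions not given in the sources used here. Libraries carried identifiers of 12 nt, and whether reads were collapsed by them is not stated, so intervals and floors (3 counts) cover counting error only. Fragments matching several places were not counted, and 0 rows lacked a gene identifier.

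Counts were analysed with edgeR 4.0.16 (R 4.3.3; filterByExpr, TMM, robust quasi-likelihood F tests, Benjamini-Hochberg at 0.05) over the whole table, in 4 fits: tumour against control in each preservation, FFPE against fresh-frozen in 8 dogs with tissue as covariate, and their interaction over 33 libraries. CPM of sums used total counts. DESeq2 1.42.0, limma 3.58.1 voom, other scalings, filters and subsets were alternatives. On simulated counts with 200 changed genes, the share of 4-fold changes recovered was 65% in the fresh-frozen fit and 79% in the FFPE fit. It was 55% in the preservation fit and 34% in the interaction fit. For 2-fold changes it was 10%, 26%, 14% and 4% in the same order of fits.

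Dog numbers in the labels name the animal, so the dog pairs the libraries. Only the replicate-block fit used this pairing. In 7 of 8 dogs both libraries deviated together from their group means (r above 0.1, range over dogs 0.0641 to 0.748). Library pairs within groups differed by more than counting noise (chi-square per degree of freedom 17.2 or more). Each library is a separate animal within its group.

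Genes described singly were the member of each family with the most counts, the 2 highest and 2 lowest fresh-frozen fold changes, and the 2 lowest p-values between preservations. Printed identifiers are limited to 2 that were higher and 2 that were lower. The members and lists were chosen with earlier results of these data known. Lists of gene symbols (dividing cells, histone mRNA supply, other cell types) were not used, since no identifier could be paired with a symbol, and a list of single-exon features up to 95 bp in the interval had 0 genes. Sequences are not analysed here.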

Additional observations from a re-analysis of the deposited data

Results flagged for a closer look

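In 48 group-and-measure combinations of 6 to 10 libraries, 14 had a highest library whose gap to the next was large for the group's range (Dixon's test at 95%). For normally distributed values chance passes this in about 1 in 20 groups. CPM cannot fall below 0 and need not be so distributed, so the chance rate here is not known. Several share a library and are not independent. The FFPE tumours, a group of 11, were not put to this rule. Among them dog 60749 had the highest sum over all members, 585.9 CPM, where the others had 32.96 to 240.6 CPM. No FFPE tumour-against-control fit left out that dog alone. No cause was tested.

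Fresh-frozen tumour dog 60631 stood out for the H3-length family, with a sum of 206.9 CPM where the others had 20.1 to 59.4 CPM. The same dog stood out for the H3-length genes at 23977201 (62.9 CPM, others 5.02 to 23.04) and 24187178 (39.7 CPM, others 0.414 to 12.5).

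Fresh-frozen control dog 60516 stood out for the H2A-length family (34.1 CPM, others 10.3 to 18.4), the second stretch (8.13 CPM, others 2.13 to 4.12) and the third stretch (13.2 CPM, others 2.17 to 5.92). For single genes it stood out at 25000401 (2.56 CPM, others 0.0784 to 0.271) and 24187178 (1.25 CPM, others 0 to 0.353).

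FFPE control dog 60126, the deepest library, stood out for the H2B-length family (43.8 CPM, others 0 to 12.9) and its gene at 24131296 (35.1 CPM, others 0 to 4.38). FFPE control dog 61478 stood out for the H3-length family (11.96 CPM, others 0.339 to 4.93), the third stretch (11.96 CPM, others 0.692 to 3.97) and the H2A-length gene at 24067113 (9.52 CPM, others 1.39 to 4.92). FFPE control dog 50315, the shallowest library, had 4.92 CPM of the H3-length gene at 24187178, where the others had 0 to 0.976 CPM. That value is 2 counts, under the limit of 3 counts (7.38 CPM there), so it is not above counting error.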

How the results depend on the processing

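Fresh-frozen genes called higher numbered 20, and 18 to 26 with each library left out. Over all genes tested 18.3% were higher in the main fit and 12.8% to 19.3% with each library left out. Members called higher numbered 14 without the set of 4 dogs, 23 with that set as a covariate and 4 with age as a covariate. After thinning to the shallowest depth they numbered 3 of 5 tested. In the same order of fits 8.74%, 23.4%, 2.63% and 13.5% of all genes were higher. FFPE genes called higher numbered 6, but 14 of 31 with no filter and 2 of 3 with a stricter filter. They numbered 0 without the 8 shared dogs, with those dogs alone or with age as a covariate. In the same order of fits 10.1%, 4.59%, 12.3%, 4.01%, 0.00665% and 0.379% of all genes were higher. Thinning left 0 members to test in FFPE tissue. Genes lower in FFPE than in fresh-frozen tissue numbered 2 (0.135% of all genes), but 4 with voom (0.866%) and 6 with the replicate block (0.491%). They numbered 15 with all 33 libraries (16.8% of all genes), and 0 to 4 with each dog left out (0% to 0.489%). Without the set of 4 dogs 0 were called (0%). Without that set 2 preservation values changed sign, to 0.15 for the H2A-length gene at 25000401 and 0.0257 for the H3-length gene at 24187178. The interaction of the H4-length gene at 24045023, 0.03, turned to -0.0124 with RLE factors, -0.0453 without mitochondrial genes, -0.0057 with DESeq2 and -0.0006 with a stricter filter. Fewer samples or genes entered the thinned, stricter-filter and subset fits; for the others the cause was not tested. All tumour-against-control differences of the family sums moved by less than 1 SD under other scalings. In FFPE tissue 8 of 31 genes had enough counts to pass the filter.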
